A study of Homo sapiens with 8 samples.

Results

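NB4 and Kasumi-1, human acute myeloid leukaemia cell lines, were compared after 24 h with 40 uM chlorprothixene, a thioxanthene antipsychotic. The comparison takes the 2 libraries, 1 per line, whose titles give 24 hours of treatment, out of 8 libraries in the series. The other libraries are 1 untreated library of each line and 1 of each line after 6 and 12 h at the same dose. All 8 came from total RNA of cells grown in serum-supplemented medium. No vehicle is named in the sources used here, so untreated and treated libraries are not matched for solvent or for time in culture. Levels are TPM, an abundance scaled for transcript length, here without the mitochondrial chromosome and rescaled to the same total. A gene entered the comparison with at least 5 TPM in either 24 h library, which 12068 of 55728 gene names did. At that edge, ZNF597 entered with 5.002 TPM in NB4 and a listed 0 in Kasumi-1, and WNT6 stayed out with 4.998 TPM in NB4 against 0.0672 TPM in Kasumi-1.

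NB4 is a model of acute promyelocytic leukaemia. In its fusion, PML-RARA, a nuclear body protein is joined to the retinoic acid receptor alpha and holds cells at the promyelocyte stage. Kasumi-1 is a model of leukaemia with t(8;21), a translocation that forms RUNX1-RUNX1T1, in which a haematopoietic transcription factor is joined to a corepressor. Chlorprothixene blocks dopamine, serotonin, histamine and muscarinic receptors and, like other cationic amphiphilic drugs, gathers in lysosomes. Each line is 1 established culture and stands for 1 patient's leukaemia, so a difference between them cannot be assigned to the fusions.

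With 1 library per line at 24 h there is no test of the 24 h difference. A gene is counted as apart where log2(TPM + 1) differed by at least 1, a rule of size that is called 2-fold below, and differences are given as NB4 minus Kasumi-1. The pseudocount of 1 TPM shrinks the differences of low genes, and the size of a difference from a listed 0 follows from it. A gene that reached 5 TPM in 1 line only is higher in that line by the rule of entry. A line difference was also fitted with limma over the 6 treated libraries, with the 3 times of a line standing as repeats. Its p-values measure the spread between times of a line and not between cultures, and they are not of 24 h alone. In bulk RNA, fewer cells of a kind and less RNA per cell cannot be told apart.

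Depth was alike in the 2 libraries. One TPM as deposited corresponded to a mean coverage of 3.32 reads per base in NB4 and 3.18 in Kasumi-1, and 14055 and 14902 genes reached 1 TPM. The mitochondrial chromosome took 5.62% of the deposited TPM in NB4 and 17.1% in Kasumi-1 at 24 h, against 6.71% and 8.73% in the untreated libraries. Without the mitochondrial rows the median gene lay 0.16 lower in NB4 (log2 difference -0.16), and with them in the total it lay at 0.04. Medians of gene lists are therefore read against the median of all genes. How many of all genes moved towards a line, or changed 2-fold from their own untreated level, was not counted. Such counts of a gene list therefore have no background.

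At 24 h, 1585 genes were at least 2-fold higher in NB4 (13.1% of those compared) and 2467 in Kasumi-1 (20.4%). NB4 thus held 39.1% of the genes apart, but 49.6% (1915 against 1949 genes) with TPM as deposited and 48.2% (1944 against 2089) with each library centred on its median. At 8-fold the counts were 341 in NB4 and 556 in Kasumi-1, and at 32-fold 61 and 128. In the limma fit 6918 genes (57.3%) passed in either direction, of which 3216 (26.6%) were higher in NB4 and 3702 (30.7%) in Kasumi-1 over the treated libraries. The line with more calls turned with the scaling, at 3635 in NB4 against 3170 in Kasumi-1 with TPM as deposited and 3594 against 3401 with each library centred. The fit includes both 24 h libraries, so for genes chosen by their 24 h difference it is not an independent test.

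Most of what set the lines apart after treatment also did so before it. Among the same 12068 genes, 1517 were 2-fold higher in NB4 and 2014 in Kasumi-1 in the untreated libraries. Of the genes higher in NB4 at 24 h, 1040 (65.6%) were so untreated, and of those higher in Kasumi-1, 1582 (64.1%). A further 523 genes were 2-fold higher in NB4 at 24 h but under 2-fold apart untreated, and 871 were so in Kasumi-1. This balance turned to 756 against 562 with TPM as deposited and to 708 against 660 with each library centred. The difference was below 2-fold at 24 h for 463 genes that were higher in untreated NB4 and for 410 that were higher in untreated Kasumi-1. For 36 genes the direction turned, 22 ending higher in NB4 and 14 in Kasumi-1. Across the genes the difference at 24 h had a Pearson correlation of 0.872 with the untreated one and of 0.919 with the one at 12 h, as a description over 12068 genes that share the same libraries and are not independent.

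The genes that were 2-fold apart at 24 h but not untreated, whatever their difference at 6 and 12 h, came from changes on either side. Of the 523 that parted towards NB4, NB4 stood at least 2-fold above its own untreated level in 150 and Kasumi-1 at least 2-fold below its own in 69. Of the 871 that parted towards Kasumi-1, Kasumi-1 stood 2-fold above its untreated level in 199 and NB4 2-fold below in 76. The remaining genes passed 2-fold through smaller changes. Only 172 of the 523 and 209 of the 871 were already 2-fold apart in the same direction at both 6 and 12 h.

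The largest difference in favour of NB4 was that of MMP9, the gelatinase secreted by neutrophils and monocytes (chromosome 20, 44637547 to 44645200, hg19). MMP9 stood at 46.7, 470.2, 1320.2 and 1673 TPM in NB4, in the order untreated, 6, 12 and 24 h, which is used for all values below, and at 0.247, 0.328, 0.359 and 0.339 TPM in Kasumi-1. Every NB4 library lay above every Kasumi-1 library, and the distance was 5.26 untreated and 10.29 at 24 h (log2 difference over the treated libraries 9.56, SE 0.42, limma adjusted p = 1.47e-06). HDC, the histidine decarboxylase that makes histamine, had 150.1, 129, 455 and 899 TPM in NB4 against at most 0.545 TPM in Kasumi-1 (24 h difference 9.40). These 2 genes differed more at 24 h than untreated, with NB4 at its highest level in the 24 h library.

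Other genes of this group were also far apart before treatment. IGFBP2, an insulin-like growth factor binding protein, had 642, 519.6, 482 and 497 TPM in NB4 against 0.541, 1.04, 0.4601 and 0.5302 TPM in Kasumi-1 (24 h difference 8.35). VIM, the intermediate filament vimentin, had 1069, 856, 1683 and 1046 TPM in NB4 against 0.655, 12.04, 17.8 and 5.86 TPM in Kasumi-1, so that its difference was 9.34 untreated and 7.25 at 24 h. The antisense gene VIM-AS1 lies on the opposite strand, and its reads cannot be told apart without strand. RHOXF2B and RHOXF2, near-identical homeobox genes of the X chromosome between which reads can be split, had 466 and 469 TPM in NB4 against 1.36 and 3.35 TPM in Kasumi-1 at 24 h.

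The remaining genes among the 15 most NB4-biased had 24 h differences between 6.51 and 6.80. Among them were MOK (a MAP kinase-related kinase), GJA1 (the gap junction protein connexin 43), PTGER4 (a prostaglandin E2 receptor), EPX (eosinophil peroxidase), CXCL10 (an interferon-induced chemokine), CYBB (the catalytic subunit of the phagocyte NADPH oxidase), SLFN11 (a restriction factor of stalled replication) and TRAC (the T cell receptor alpha constant region). SLFN11 had 80.99, 98.5, 108 and 97.3 TPM in NB4 against at most 0.144 TPM in Kasumi-1, and its limma log2 difference was 6.54 (SE 0.15, limma adjusted p = 1.75e-07). All 15 passed limma towards NB4, also in each of the 6 fits that left out 1 library. They were chosen by their 24 h difference, so this is not an independent test. Of all 1585 genes 2-fold higher in NB4 at 24 h, 90.7% passed in that direction. CXCL10 was under 2-fold apart in the untreated libraries.

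The largest difference in favour of Kasumi-1 was that of ELANE, neutrophil elastase (chromosome 19, 851014 to 856242, hg19), with 689.9, 1624, 786 and 501 TPM in Kasumi-1 and 0.813, 0.659, 0.0101 and 0.273 TPM in NB4. The 24 h difference was -8.62 and the untreated one -8.57 (log2 difference over the treated libraries -9.39, SE 0.40, limma adjusted p = 1.28e-06). APP, the amyloid precursor protein, had 529.7, 559, 547 and 467 TPM in Kasumi-1 and at most 0.465 TPM in NB4. CTHRC1, a secreted collagen triple helix protein, had 409, 345, 411 and 471 TPM in Kasumi-1 and at most 0.643 TPM in NB4. For these 3 genes each Kasumi-1 library lay above each NB4 library. The difference of ELANE was larger at 6 h (-9.94) and 12 h (-9.61) than untreated or at 24 h.

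SERPINB6, an intracellular serine protease inhibitor, stood at 249, 248, 241 and 279 TPM in Kasumi-1 and was listed at 0 in NB4 at 12 and 24 h. C1QTNF4, a C1q-related secreted protein, had 740.5, 311, 279 and 368 TPM in Kasumi-1 against at most 0.342 TPM in NB4. The other genes among the 15 had 24 h differences between -7.76 and -7.15. They were KIT (the stem cell factor receptor), CYP51A1 (lanosterol demethylase, which overlaps LRRD1 on the same strand), SPINT2 (a serine protease inhibitor), MYO15B (an unconventional myosin), MFNG (a glycosyltransferase of Notch receptors), PTK2 (focal adhesion kinase), NBL1 (a BMP antagonist), ITM2A (a membrane protein of activated lymphocytes), GPX7 (a glutathione peroxidase family member) and MAGED1 (a MAGE family adaptor). All 15 were 2-fold apart untreated, and all 15 passed limma towards Kasumi-1, also in each of the 6 fits that left out 1 library. Chosen by their 24 h difference, they are not independently tested by this fit. Of all 2467 genes 2-fold higher in Kasumi-1 at 24 h, 90.9% passed in that direction. NBL1 overlaps the read-through gene MINOS1-NBL1 on the same strand, which had 0.0959 TPM in NB4 against 0.0118 TPM in Kasumi-1 at 24 h.

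The partner genes of the fusions and genes known from each leukaemia were looked at in both lines, as lists chosen with earlier results of these data known. RUNX1T1, whose expression in blood cells marks t(8;21), had 101, 87.8, 64.9 and 98.6 TPM in Kasumi-1 and 0.0329, 0, 0.0508 and 0.0128 TPM in NB4, with 24 h and untreated differences of -6.62 and -6.63. RUNX1 had 135 TPM in Kasumi-1 and 48.4 TPM in NB4 at 24 h (difference -1.46). The partners of the NB4 fusion differed little, and gene-level values do not separate a fusion transcript from the normal allele. PML had 41.2 and 40.1 TPM and RARA 31.8 and 30.5 TPM at 24 h. All 7 compared genes of the t(8;21) list, of 12 listed, were 2-fold higher in Kasumi-1 (TRH, CD34, KIT, RUNX1 and RUNX1T1 among them). Their median was -4.79 at 24 h and -4.71 untreated, and all 7 passed limma. KIT, CD34, TRH and RUNX1T1 reached 5 TPM at 24 h in Kasumi-1 alone, so their direction followed from the rule of entry.

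Of 10 compared genes known from promyelocytic leukaemia, 5 were 2-fold higher in NB4 and 1 in Kasumi-1 (median 0.88 at 24 h), while limma called 3 higher in each line over the treated libraries. Besides IGFBP2 these were F3, the tissue factor that starts coagulation, with 15.9, 89.7, 111 and 90.4 TPM in NB4 against 4.46, 16.2, 19.9 and 12.03 TPM in Kasumi-1, and STAB1, a scavenger receptor, with 75.4 and 11.4 TPM at 24 h. S100A10 and PLAUR, which bind plasminogen and urokinase at the cell surface, had 99.2 and 156 TPM in NB4 against 29.9 and 38.96 TPM in Kasumi-1 at 24 h. HGF, hepatocyte growth factor, went the other way, with 269 TPM in Kasumi-1 and 1.87 TPM in NB4 (difference -6.55, limma adjusted p = 3.35e-07).

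Genes of stem and progenitor cells stood on the Kasumi-1 side. Of 12 compared, 9 were 2-fold higher in Kasumi-1 and 2 in NB4, where the shares of all genes compared were 20.4% and 13.1%. The median was -1.49 at 24 h and -1.20 untreated, and 8 passed limma towards Kasumi-1. KIT had 493, 78.7, 129 and 231 TPM in Kasumi-1 and at most 0.328 TPM in NB4, and CD34, a surface glycoprotein of progenitors, 122, 19.9, 40.8 and 69.4 TPM and at most 0.0379 TPM. Both lay below their untreated level in all 3 treated Kasumi-1 libraries, least so at 24 h, and still above every NB4 library. ERG and TAL1, transcription factors of stem cells, had 102 and 33.5 TPM in Kasumi-1 and 0.0503 and 0.0577 TPM in NB4 at 24 h. The members 2-fold higher in NB4 were GFI1B, a repressor of erythroid and megakaryocytic cells (1.06, 1.66, 2.81 and 17.3 TPM in NB4 against at most 0.0935 TPM in Kasumi-1 at 24 h), and CD38, an ectoenzyme that marks committed progenitors (10.5 and 0.806 TPM at 24 h). KIT, CD34, ERG and TAL1 reached 5 TPM at 24 h in Kasumi-1 alone, and GFI1B and CD38 in NB4 alone. The direction of these genes thus followed from the rule of entry.

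Primary granule genes encode the proteases and peroxidases stored at the promyelocyte stage. Their list also held the eosinophil granule genes EPX and PRG2 and the protease inhibitor SERPINB1. The median of the list lay on the NB4 side in the first 3 pairs of libraries and on the Kasumi-1 side in the 24 h pair alone. At 24 h EPX (6.76) and PRG2 (4.38) counted towards NB4 and SERPINB1 (-6.50) towards Kasumi-1. Of 15 compared, 8 were 2-fold higher in NB4 and 5 in Kasumi-1 untreated, and 5 and 7 at 24 h. Their median was 1.36 untreated, 1.67 and 0.98 at 6 and 12 h and -0.58 at 24 h. For 14 of the 15 the difference moved towards Kasumi-1, and for 3 it changed sign. In limma, 7 were higher in NB4 and 6 in Kasumi-1 over the treated libraries. At 24 h NB4 stood at least 2-fold below its own untreated level for 6 of the 15 and above it for 0. Kasumi-1 stood 2-fold above its own for 3 and below for 2. Such counts, and that of moves, were not made over all genes.

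MPO, myeloperoxidase, was the second most abundant protein-coding gene of Kasumi-1 at 24 h, with 10856, 12389, 10208 and 11269 TPM in Kasumi-1 and 5240.5, 3307, 2249 and 1619 TPM in NB4. Kasumi-1 stayed within 10208 to 12389 TPM while each later NB4 library lay lower than the one before, so that the difference was -1.05 untreated and -2.80 at 24 h (log2 difference over the treated libraries -2.30, SE 0.24, limma adjusted p = 0.00013). PRTN3, proteinase 3, had 1074, 739.9, 244 and 148 TPM in NB4 against 6542, 5485, 2839 and 2136 TPM in Kasumi-1, lower at each later time in both lines. CTSG, cathepsin G, had 498, 245, 102 and 32.9 TPM in NB4 against 12.7, 20.6, 6.799 and 2.39 TPM in Kasumi-1, and LYZ, lysozyme, 55.6, 57.6, 52.2 and 70.7 and 27.9, 37.1, 88.9 and 171 TPM. CTSG thus remained higher in NB4 at a lower level, and LYZ was higher in NB4 untreated and in Kasumi-1 at 24 h. SERPINB1, an inhibitor of the granule proteases, had 1533 TPM in Kasumi-1 and 15.97 TPM in NB4 at 24 h (difference -6.50).

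Maturation genes of granulocytes and monocytes were divided between the lines. Of 20 compared, 10 were 2-fold higher in NB4 and 7 in Kasumi-1 at 24 h, the median was 0.61 (0.60 untreated), and 7 and 8 passed limma. At 24 h 11 of the 20 stood at least 2-fold above the untreated level in NB4 and 11 in Kasumi-1, while the medians at 6 and 12 h were -0.30 and -0.12. The difference moved towards NB4 for 9 members and towards Kasumi-1 for 11, by 5.03 at most towards NB4 and -3.41 at most towards Kasumi-1. On the NB4 side were the integrin chains ITGB2 (83.2, 96.3, 203 and 269 TPM in NB4 against 17.5, 11.6, 12.5 and 13.3 TPM in Kasumi-1) and ITGAM (8.87, 12.7, 39.6 and 47.1 and 0, 1.502, 2.07 and 1.86 TPM), which form the complement receptor CR3. ITGB2 overlaps ITGB2-AS1 on the opposite strand. CYBB had 77.6, 59.01, 145 and 134 TPM in NB4 against at most 0.401 TPM in Kasumi-1.

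The oxidase that contains CYBB was split between the lines. NCF4 and NCF1, cytosolic subunits, were higher in Kasumi-1 at 24 h, with 321 and 43.6 TPM against 65.7 and 14.6 TPM in NB4. CYBA, the membrane partner of CYBB, had 416 TPM in NB4 against 386 TPM in Kasumi-1. S100A9, a calcium-binding protein of neutrophils, had 467, 214, 143 and 145 TPM in Kasumi-1 and 4.998, 3.41, 2.15 and 0.813 TPM in NB4 (24 h difference -6.33). CSF3R, the receptor of granulocyte colony-stimulating factor, had 461 TPM in Kasumi-1 and 29.99 TPM in NB4, whereas CSF1R, the receptor of the macrophage factor, had 22.1 TPM in NB4 against 0.779 TPM in Kasumi-1. The secondary granule genes LTF, CAMP, LCN2, CEACAM8 and MMP8 stood at or below 1.14 TPM in both 24 h libraries.

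**Figure D1:**
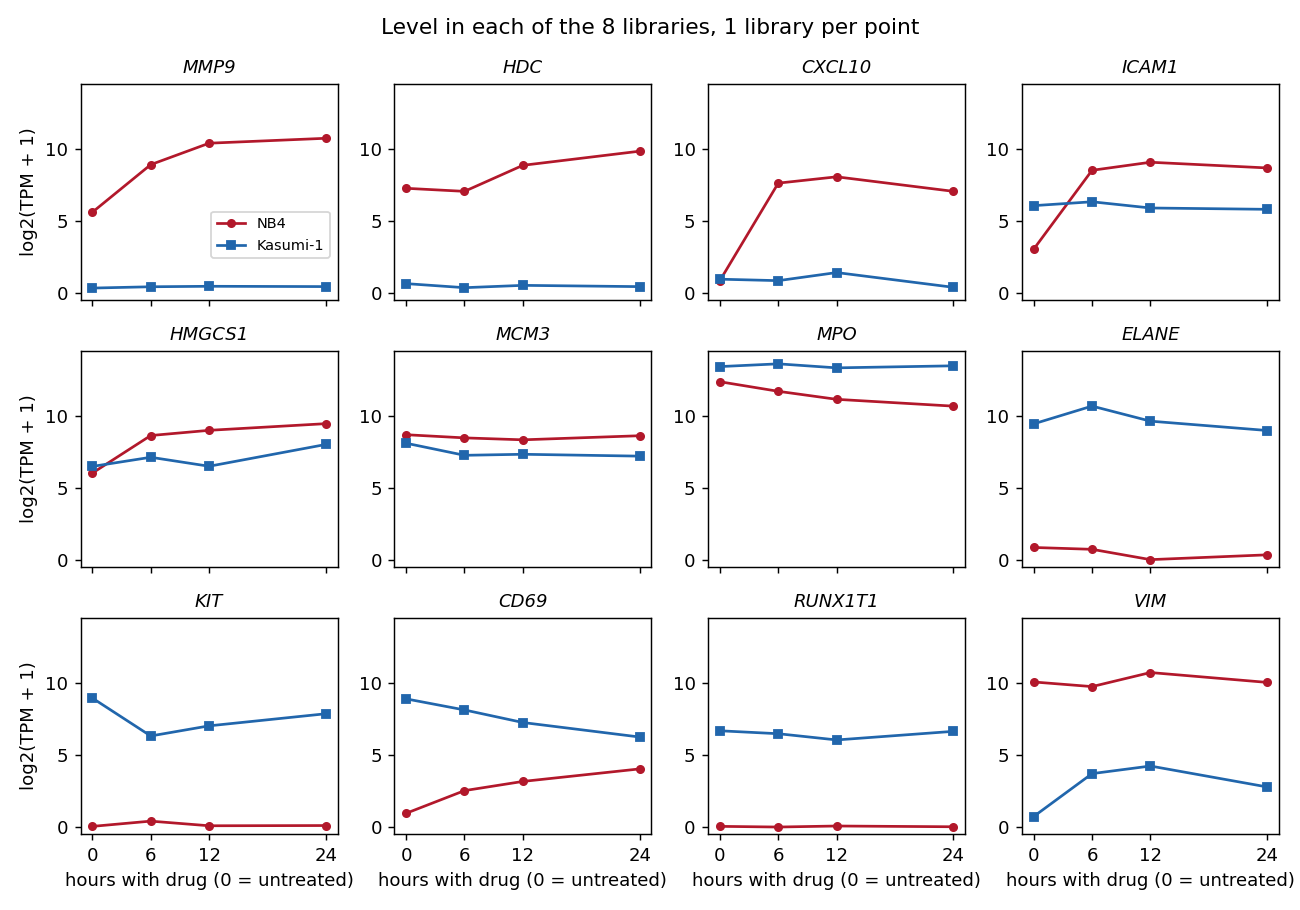
Levels of 12 genes in the 8 libraries as log2(TPM + 1) against hours with drug, where 0 is untreated and each point is 1 library (NB4 circles, Kasumi-1 squares). MMP9 and HDC are highest in NB4 at 24 h, CXCL10 is highest in NB4 at 12 h, the ICAM1 and HMGCS1 lines cross, the MPO lines part, the CD69 lines approach each other, and ELANE, KIT and RUNX1T1 stay far apart throughout.

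Transcription factors of the myeloid lineages gave 5 genes 2-fold higher in NB4 and 3 in Kasumi-1 of 18 compared (median 0.51, and -0.04 untreated). CEBPD, a C/EBP factor, had 161, 147, 131 and 79.5 TPM in NB4 against 3.99, 6.94, 13.1 and 8.35 TPM in Kasumi-1, and KLF4, a monocytic factor, had 7.11, 8.33, 7.11 and 6.504 TPM in NB4 and was listed at 0 in each Kasumi-1 library. KLF2, a quiescence factor, was higher in Kasumi-1, with 27.3, 622, 346 and 158 TPM against 1.11, 8.15, 7.13 and 12.7 TPM in NB4. A list of HOX genes, which pattern early progenitors, also held PBX3, a gene of chromosome 9 outside the HOX clusters. Of its 5 compared members, of 16 listed, 4 were 2-fold higher in NB4, PBX3 among them (11.4 and 0.0791 TPM at 24 h), and 1 in Kasumi-1. HOXB9 had 87.2 TPM in NB4 and was listed at 0 in Kasumi-1 at 24 h, and HOXA5 had 20.4 TPM in Kasumi-1 and 0.944 TPM in NB4. HOXB8, HOXB9, PBX3 and HOXA5 reached 5 TPM at 24 h in 1 line alone, so their direction followed from the rule of entry.

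Markers of other blood and tissue cells were looked at for each line. Of 8 compared markers of mast cells, basophils and eosinophils, 4 were 2-fold higher in NB4 and 2 in Kasumi-1 (summed level over the whole list of 16 genes 1507 and 471 TPM, median 1.604 at 24 h and 0.44 untreated). HDC, EPX, PRG2 (eosinophil major basic protein, 234 and 10.3 TPM) and IL1RL1 (the interleukin 33 receptor, 5.37 and 0.189 TPM) made up the NB4 side. KIT, also in this list, stood on the Kasumi-1 side, with 0.0741 TPM in NB4 against 231 TPM in Kasumi-1 (24 h difference -7.76). HDC, EPX and IL1RL1 reached 5 TPM at 24 h in NB4 alone and KIT in Kasumi-1 alone, so their direction followed from the rule of entry. The defining receptor genes MS4A2 and FCER1A were listed at 0 in both libraries. The mast cell tryptases TPSAB1 and TPSB2, near-identical copies between which reads can be split, had 0.894, 2.25, 12.5 and 28.9 and 1.12, 1.94, 15.8 and 34.2 TPM in NB4 against 2.04, 9.97, 19.9 and 34.3 and 5.300, 28.1, 64.2 and 107 TPM in Kasumi-1. Both stood higher in each line at 24 h than in any earlier library.

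Of 20 lymphoid markers 6 were compared and 4 were 2-fold higher in NB4, where the share of all genes compared was 13.1%. TRAC, PRF1 and CD3D reached 5 TPM at 24 h in NB4 alone, so their direction followed from the rule of entry. Summed levels over the whole list were 457 TPM in NB4 against 25.1 TPM in Kasumi-1. TRAC had 17.8, 19.9, 68.98 and 131 TPM in NB4 against at most 0.415 TPM in Kasumi-1, NKG7, a granule membrane protein of cytotoxic cells, 59.7, 85.1, 148 and 244 and 0.914, 3.53, 8.03 and 10.8 TPM, and PRF1, perforin, 28.6, 20.2, 30.3 and 50.5 TPM in NB4 with listed zeros in Kasumi-1. CD3D, a chain of the T cell receptor complex, had 5.19, 4.52, 10.2 and 13.8 TPM in NB4 against 12.6, 2.43, 1.29 and 1.43 TPM in Kasumi-1 and turned from -1.14 to 2.60 (log2 difference over the treated libraries 1.86, SE 0.37, limma adjusted p = 0.00357). Of the other defining genes, CD3G, CD5, LCK, MS4A1, GZMB and KLRB1 were listed at 0 in both 24 h libraries. Of 15 erythroid markers 9 were listed at 0 in both and 2 were compared (TFRC and EPOR). Of 11 epithelial and fibroblast markers 4 were listed at 0 in both, and VIM, EPCAM and KRT8 were compared. The part of other cell types in the line differences was not tested.

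The difference moved furthest towards NB4 in inflammatory genes. Of 20 compared NF-kB target and chemokine genes, 3 were 2-fold higher in NB4 and 11 in Kasumi-1 untreated, and 9 and 4 at 24 h. Their median went from -1.20 to 0.64 and was already 0.18 at 6 h and 0.61 at 12 h, and the difference moved towards NB4 for 19 of the 20. At 24 h 15 of the 20 stood at least 2-fold above the untreated level in NB4 and 5 in Kasumi-1. Neither these counts nor that of moves was made over all genes. In limma 9 were higher in NB4 and 3 in Kasumi-1 over the treated libraries. Among all genes compared, 12.6% were 2-fold higher in NB4 and 16.7% in Kasumi-1 untreated, and 13.1% and 20.4% at 24 h. The median of all genes went from -0.08 to -0.16.

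ICAM1, the adhesion ligand of leukocyte integrins, had 7.05, 358, 528 and 401 TPM in NB4 against 64.6, 78.02, 57.6 and 53.99 TPM in Kasumi-1. Untreated Kasumi-1 lay above untreated NB4, the 3 treated NB4 libraries lay above all 4 of Kasumi-1, and the difference turned from -3.03 to 2.87 (log2 difference over the treated libraries 2.74, SE 0.19, limma adjusted p = 1.39e-05). CXCL10, which attracts T cells, had 0.784, 193, 262 and 129 TPM in NB4 against 0.912, 0.782, 1.63 and 0.293 TPM in Kasumi-1. CCL2, which attracts monocytes, had 0.109, 19.99, 24.1 and 25.3 TPM in NB4 against at most 0.312 TPM in Kasumi-1, and was listed at 0 in 2 Kasumi-1 libraries. CCL3, another monocyte chemokine, had 0.334, 59.1, 111 and 177 TPM in NB4 against 0.1300, 57.2, 36.03 and 7.41 TPM in Kasumi-1, so that the lines were alike at 6 h and far apart at 24 h.

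TNFAIP3, the ubiquitin-editing inhibitor of NF-kB signalling, had 9.198 TPM untreated and 209 TPM at 24 h in NB4, where Kasumi-1 had 94.7 and 83.6 TPM. NFKB2, which encodes an NF-kB subunit, had 44.5 and 286 TPM in NB4, where Kasumi-1 had 85.9 and 102 TPM. CXCL1, a neutrophil chemokine, was the member furthest on the Kasumi-1 side, with 13.2 TPM there and a listed 0 in NB4 at 24 h. IL8, the main neutrophil chemokine, had 142 TPM in NB4 against 321 TPM in Kasumi-1 at 24 h, and its untreated levels were 4.54 and 349.7 TPM.

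The promoters of CXCL10, TNFAIP3 and ICAM1 are printed because these genes moved together towards NB4 and differ in exact matches to an NF-kB consensus. The consensus used, GGGRNWYYCC, was searched on both strands in the 250 bases before the gene start given by RefSeq (GRCh38.p14, matched by symbol). R stands for A or G, Y for C or T, W for A or T and N for any base, and matches are in capitals. CXCL10 lies on the minus strand (chr4:76023498-76023747), TNFAIP3 on the plus strand (chr6:137867009-137867258) and ICAM1 on the plus strand (chr19:10270870-10271119), each written 5′ to 3′ in the direction of the gene.
CXCL10: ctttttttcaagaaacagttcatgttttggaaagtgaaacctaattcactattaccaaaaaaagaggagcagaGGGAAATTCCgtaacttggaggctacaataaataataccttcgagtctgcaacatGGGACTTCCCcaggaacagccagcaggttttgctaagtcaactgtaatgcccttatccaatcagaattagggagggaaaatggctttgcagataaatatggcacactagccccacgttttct
TNFAIP3: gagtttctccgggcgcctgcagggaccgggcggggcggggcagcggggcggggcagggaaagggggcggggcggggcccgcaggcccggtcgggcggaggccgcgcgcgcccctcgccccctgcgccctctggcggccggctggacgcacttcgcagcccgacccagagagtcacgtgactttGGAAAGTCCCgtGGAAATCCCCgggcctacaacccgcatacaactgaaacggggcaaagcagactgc
ICAM1: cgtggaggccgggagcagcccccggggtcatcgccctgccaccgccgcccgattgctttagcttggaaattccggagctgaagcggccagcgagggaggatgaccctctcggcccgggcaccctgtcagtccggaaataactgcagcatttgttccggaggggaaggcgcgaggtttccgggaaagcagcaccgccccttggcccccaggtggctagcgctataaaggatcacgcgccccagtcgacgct
CXCL10 holds 2 matches on the gene's strand, the nearer one 113 to 122 bases before the start. TNFAIP3 holds 2 on the opposite strand, 46 to 55 and 58 to 67 bases before the start, which overlap no other match. ICAM1 holds 0 matches, which says only that these letters are not in this window. Its window does hold tggaaattcc, which differs from the CXCL10 match GGGAAATTCC in the first letter alone. The consensus is in 5.05% of all 27305 promoters of the table, in 5.94% of the 8270 promoters of genes compared here, in 7.67% of the 339 promoters of genes that parted towards NB4 and in 6.11% of the 540 of genes that parted towards Kasumi-1. A match is a description of the sequence, and the genes and the motif were chosen after the values were seen.

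Immediate early genes, which answer growth factor and stress signals within minutes, moved in the same direction. Of 18 compared, 0 were 2-fold higher in NB4 and 10 in Kasumi-1 untreated, and 8 and 2 at 24 h. Their median went from -1.05 to 0.68, and the difference moved towards NB4 for 16 of the 18. In limma 5 were higher in NB4 and 5 in Kasumi-1 over the treated libraries, and at 6 h the median was still -0.77. EGR1, a zinc finger factor, had 15.4, 47.1, 47.7 and 42.3 TPM in NB4 against 62.1, 51.3, 20.8 and 6.44 TPM in Kasumi-1. The order of the lines was reversed between untreated and 24 h, but EGR1 did not pass limma (log2 difference over the treated libraries 1.19, SE 0.60, limma adjusted p = 0.123). EGR2, FOSL1 and the phosphatases DUSP2 and DUSP6, which act on MAP kinases, had 11.8, 97.6, 77.8 and 152 TPM in NB4 against 0.328, 10.7, 8.03 and 25.1 TPM in Kasumi-1 at 24 h. These 4 genes were under 2-fold apart untreated, by 0.25 to 0.98.

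CD69, an early activation antigen of leukocytes, was a gene whose difference was smaller at 24 h. It had 474, 278, 151 and 74.8 TPM in Kasumi-1 and 0.934, 4.76, 7.96 and 15.4 TPM in NB4, so that the levels approached each other from both sides. The difference was -7.94 untreated and -2.21 at 24 h, and all 4 Kasumi-1 libraries remained above all 4 of NB4. NR5A2, a nuclear receptor of liver and pancreas, moved towards Kasumi-1, with 0.000479, 7.04, 15.8 and 20.4 TPM there and at most 0.472 TPM in NB4 (log2 difference over the treated libraries -3.50, SE 0.36, limma adjusted p = 0.000119). SLC2A5, a fructose transporter, had 43.5, 17.1, 10.2 and 9.92 TPM in NB4 against 11.3, 6.47, 18.6 and 33.6 TPM in Kasumi-1. Its difference turned from 1.85 to -1.66, but SLC2A5 did not pass limma (log2 difference over the treated libraries -0.39, SE 0.51, limma adjusted p = 0.537).

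Several of the largest moves lie in genes whose reads are hard to assign, or rest on 1 library. HSPE1-MOB4, BIVM-ERCC5 and SENP3-EIF4A1 are read-through genes that overlap their parts on the same strand. HSPE1-MOB4 had 0, 0, 4.795 and 9.599 TPM in NB4 against 5.71, 5.49, 4.12 and 0 TPM in Kasumi-1, while HSPE1 had 418 and 251 TPM and MOB4 45.8 and 31.1 TPM at 24 h. BIVM-ERCC5 was listed at 0 in 3 Kasumi-1 libraries and had 26.5 TPM in the fourth at 24 h, while ERCC5 stayed between 30.5 and 33.2 TPM in Kasumi-1. IER5, an immediate early gene, was listed at 0 in untreated Kasumi-1 and had 38.3 to 45.1 TPM in the treated Kasumi-1 libraries. CCPG1, a cell cycle and reticulophagy protein with a read-through partner, had 101, 35.05, 46.7 and 39.1 TPM in NB4 against 5.02, 56.8, 19.2 and 50.98 TPM in Kasumi-1.

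Other such genes had 1 Kasumi-1 value at 24 h unlike the 3 before it. EPM2AIP1, a protein that binds laforin, stood at 14.7, 13.9, 14.9 and 1.37 TPM in Kasumi-1 and 0.917, 13.7, 19.5 and 18.7 TPM in NB4. FAM203B had 31.04, 17.9, 17.5 and 0 TPM in Kasumi-1, SNORA18, a small nucleolar RNA name under which several loci were summed, 24.99, 32.8, 21.03 and 0.00309 TPM, and TRAPPC5, a subunit of a vesicle tether, 17.5, 22.5, 20.8 and 169 TPM. MTATP6P1 and MTATP8P1, nuclear copies of mitochondrial genes, had 2.896, 2.398, 2.75 and 142 and 7.47, 6.63, 7.33 and 0.745 TPM in Kasumi-1 and 4.06, 20.4, 16.2 and 2.64 and 0.854, 0.2201, 1.35 and 5.61 TPM in NB4. The 24 h Kasumi-1 library that holds the high MTATP6P1 value is the one with the mitochondrial share of 17.1%, and the part of mitochondrial reads in it was not tested. None of these 6 passed limma, with adjusted p from 0.0616 for SNORA18 to 0.936 for MTATP6P1.

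Genes of cholesterol synthesis and uptake ended higher in NB4 from a lower start. Of 24 compared, 0 were 2-fold higher in NB4 and 8 in Kasumi-1 untreated, and 7 and 1 at 24 h. The median went from -0.84 untreated to 0.39, 0.99 and 0.50 at 6, 12 and 24 h. For 18 of the 24 the sign turned from Kasumi-1 to NB4, and for 23 the difference moved towards NB4. In NB4 20 of the 24 stood at least 2-fold above the untreated level at 24 h and in Kasumi-1 8, so that both lines moved the same way and NB4 by more. In limma 15 were higher in NB4 and 4 in Kasumi-1.

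HMGCS1, the synthase of hydroxymethylglutaryl-CoA, had 63.7, 394, 506 and 697 TPM in NB4 against 88.3, 138, 89.05 and 256 TPM in Kasumi-1 (24 h difference 1.44, log2 difference over the treated libraries 1.81, SE 0.37, limma adjusted p = 0.00412). HSD17B7, a late enzyme of the pathway, had 17.2, 70.8, 87.5 and 106 and 23.8, 30.3, 25.7 and 38.7 TPM, and INSIG1, which holds the sterol sensor in the endoplasmic reticulum, 68.5, 528, 541 and 589 and 104, 339, 144 and 235 TPM. For each of these, all 3 treated NB4 libraries lay above the Kasumi-1 library of the same time. CYP51A1 went against the list, with 105, 237, 136 and 202 TPM in Kasumi-1 and 0.226, 0.232, 0.296 and 0 TPM in NB4. Its neighbour LRRD1, which overlaps it on the same strand, had 0.254, 0.5401, 1.18 and 0.3104 TPM in NB4 against at most 0.0407 TPM in Kasumi-1, and the part of read assignment in the CYP51A1 difference was not tested.

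Fatty acid synthesis was represented by 12 compared genes, of which 4 were 2-fold higher in NB4 and 1 in Kasumi-1 at 24 h (median 0.52, and -0.01 untreated). ELOVL6, an elongase, had 20.99, 56.8, 81.2 and 101 TPM in NB4 against 7.18, 6.298, 2.299 and 7.77 TPM in Kasumi-1, ME1, malic enzyme, 66.2 and 5.76 TPM at 24 h, and SCD, the stearoyl-CoA desaturase, 957 and 314 TPM. FADS1, a desaturase of polyunsaturated fatty acids, was higher in Kasumi-1, with 231 against 81.8 TPM. Of 6 compared LXR targets and cholesterol efflux genes, 2 were 2-fold higher in each line. MYLIP, a ubiquitin ligase, had 85.4 TPM in Kasumi-1 and 12.01 TPM in NB4, and SCARB1, a receptor of high-density lipoprotein, 99.3 and 294 TPM.

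Lysosome and autophagy genes differed by under 2-fold for most members, with medians a little below that of all genes, which was -0.16. Of 28 lysosome genes, 1 was 2-fold higher in NB4 and 5 in Kasumi-1 (median -0.28, and -0.10 with TPM as deposited), and limma called 2 and 12. Their medians at 6 and 12 h were -0.62 and -0.49. GAA, the acid alpha-glucosidase, had 364, 336, 285 and 282 TPM in Kasumi-1 and 23.7, 14.8, 21.8 and 25.2 TPM in NB4, and CTSH, cathepsin H, the NB4 exception, 197 TPM in NB4 against 26.5 TPM in Kasumi-1 at 24 h. ASAH1, acid ceramidase, parted towards Kasumi-1, with 89.8, 93.00, 128 and 195 TPM there and 51.1, 55.5, 74.4 and 70.1 TPM in NB4. Of 21 autophagy genes, 1 was higher in NB4 and 4 in Kasumi-1 (median -0.32, and -0.14 with TPM as deposited), and 1 and 6 passed limma. WIPI1, a phosphoinositide effector, had 41.8, 66.3, 88.6 and 127 TPM in Kasumi-1, higher in each later library, and 5.83, 5.99, 7.67 and 8.600 TPM in NB4, and OPTN, a cargo receptor, 7.97, 29.1, 24.5 and 32.8 and 0.398, 0.853, 2.23 and 2.74 TPM.

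Iron and oxidant response genes differed by gene. FTH1, the ferritin heavy chain, had 805, 2722, 3299 and 2915 TPM in NB4 against 239, 518, 634 and 671 TPM in Kasumi-1 (log2 difference over the treated libraries 2.30, SE 0.13, limma adjusted p = 5.70e-06), while FTL, the light chain, had 4893 and 6935 TPM at 24 h. HMOX1, haem oxygenase, had 2.91, 16.6, 12.2 and 40.8 TPM in Kasumi-1 and 0.2999, 2.66, 3.49 and 3.93 TPM in NB4. Of 15 NRF2 targets, 1 was 2-fold higher in NB4 and 3 in Kasumi-1, while the median was 0.35 and limma called 7 higher in NB4 and 4 in Kasumi-1. NQO1, a quinone reductase, stood at 138 TPM in Kasumi-1 and 41.8 TPM in NB4.

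DNA replication genes parted, with Kasumi-1 lower than before treatment. Of 34 compared, 11 were 2-fold higher in NB4 and 1 in Kasumi-1 at 24 h, against 3 and 1 untreated. The median went from -0.07 to 0.56, 0.50 and 0.66 at 6, 12 and 24 h, and the difference moved towards NB4 for 31 of the 34. At 24 h 10 of the 34 stood at least 2-fold below the untreated level in Kasumi-1 and 1 in NB4. Moves and changes from untreated were not counted over all genes. In limma 22 were higher in NB4 and 2 in Kasumi-1, the latter 1 without NB4 at 6 or 12 h or without any of the 3 Kasumi-1 libraries. RRM2, the small subunit of ribonucleotide reductase, had 88.1, 131, 127 and 145 TPM in NB4 against 116, 74.1, 61.3 and 44.5 TPM in Kasumi-1 (log2 difference over the treated libraries 1.18, SE 0.19, limma adjusted p = 0.00113). MCM3, a subunit of the replicative helicase, had 389.7 and 145 TPM at 24 h, from 409 and 272 TPM, and RFC3, a clamp loader subunit, 105 and 30.1 TPM.

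Mitosis genes did not follow. Of 30 compared, 0 were 2-fold higher in NB4 and 3 in Kasumi-1 at 24 h, and the median was 0.07 untreated, 0.56 and 0.55 at 6 and 12 h and -0.21 at 24 h, near the median of all genes. UBE2C, an ubiquitin carrier of the anaphase-promoting complex, had 197 TPM in Kasumi-1 and 84.9 TPM in NB4, and HMMR, a spindle protein, 110.2 and 47.2 TPM. In limma 11 were higher in NB4 and 3 in Kasumi-1, and 17 and 1 without NB4 at 24 h, so the 24 h library of NB4 differed from the earlier ones in this list. The Kasumi-1 count was also 1 without the 12 h library of NB4 or the 24 h library of Kasumi-1.

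The lines expressed different G1 regulators before and after treatment. CCND1 and CCND3, D-type cyclins, had 28.8, 79.02, 62.9 and 46.7 and 179, 193, 226 and 227 TPM in NB4 against 0.352, 0.744, 2.43 and 0.718 and 9.89, 14.6, 9.73 and 8.92 TPM in Kasumi-1. CDK6, their kinase partner, and CDKN2A, an inhibitor of that kinase, had 145, 128, 134 and 145 and 19.8, 53.7, 60.6 and 41.2 TPM in Kasumi-1 and 7.67, 4.19, 5.74 and 5.32 and 0, 0, 0 and 0.179 TPM in NB4. Of 17 G1 genes compared 5 were 2-fold higher in NB4 and 4 in Kasumi-1 at 24 h (median 0.07, and -0.87 untreated), and 3 and 5 passed limma. All 4 genes named were 2-fold apart in the same direction in every pair of libraries of a time.

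Ribosome biogenesis and glycolysis genes lay on the NB4 side. Of 26 MYC and ribosome biogenesis genes, 8 were 2-fold higher in NB4 and 0 in Kasumi-1 (median 0.49, and 0.44 untreated), and 14 and 1 passed limma. NOLC1, a nucleolar chaperone, had 459, 428, 381 and 387 TPM in NB4 against 254, 166, 129 and 119 TPM in Kasumi-1, and RRP9, a component of small nucleolar particles, 114 and 30.96 TPM at 24 h. Of 22 hypoxia and glycolysis genes, 7 were 2-fold higher in NB4 and 3 in Kasumi-1 (median 0.84, and 0.34 untreated), and 11 and 3 passed limma. PKM, pyruvate kinase, had 1479 and 427 TPM at 24 h, BNIP3, a mitophagy receptor, 180.2 and 51.3 TPM, and HK1, hexokinase 1, 7.48 and 178 TPM, the last with Kasumi-1 above NB4 in every library.

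Chaperone lists differed from each other. Of 17 heat shock genes, 7 were 2-fold higher in NB4 and 3 in Kasumi-1 at 24 h, against 0 and 3 untreated (median 0.91, and 0.02 untreated), and the difference moved towards NB4 for 15. In limma 9 were higher in NB4 and 4 in Kasumi-1. DNAJA1, a cochaperone of HSP70, had 378, 875, 743 and 607 TPM in NB4 against 351, 406, 362 and 236 TPM in Kasumi-1, while HSPB1, a small heat shock protein, and HSF1, the heat shock factor, had 440.0 and 245 TPM in Kasumi-1 and 86.5 and 85.7 TPM in NB4. Of 24 endoplasmic reticulum chaperones, 2 were higher in NB4 and 1 in Kasumi-1 (median 0.14, and -0.40 untreated), while limma called 4 and 6. PDIA3, a disulfide isomerase, had 677 and 212 TPM and MANF, a stress-induced secreted factor, 176 and 79.1 TPM, and P4HB, another isomerase, was higher in Kasumi-1 (1356 and 4047 TPM). Of 29 ATF4 genes, which answer amino acid shortage, 8 were higher in NB4 and 2 in Kasumi-1, and 6 in each line passed limma. Their median was 0.85 untreated, -0.17 and -0.18 at 6 and 12 h and 0.36 at 24 h, and between untreated and 24 h 21 of the 29 differences moved towards Kasumi-1. SLC7A5, an amino acid transporter, had 782, 1112, 795 and 616 TPM in NB4 against 116, 209, 106 and 61.9 TPM in Kasumi-1, and CHAC1, which degrades glutathione, 0.0978, 0.104, 0.364 and 0.2799 and 40.7, 28.5, 20.1 and 10.8 TPM.

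Cell death genes were evenly divided. Of 14 BCL2 family genes, 3 were 2-fold higher in each line (median -0.19). BBC3, a BH3-only killer, had 22.9, 101, 67.3 and 65.7 TPM in NB4 against 3.18, 32.96, 17.6 and 12.3 TPM in Kasumi-1, and BCL2A1, a survival member, 46.4 and 6.46 TPM at 24 h. BIK, another BH3-only gene, and BOK, an effector, had 20.1 and 7.51 TPM in Kasumi-1 and 2.14 and 0.107 TPM in NB4. Of 19 p53 targets, 6 were 2-fold higher in NB4 and 4 in Kasumi-1, while limma called 5 and 8 and the median was -0.17 (0.01 with TPM as deposited). TP53INP1 and TP53I3 had 28.96 and 24.2 TPM in Kasumi-1 and 0.0598 and 0.338 TPM in NB4, and TNFRSF10B, a death receptor for TRAIL, had 116 TPM in NB4 against 23.4 TPM in Kasumi-1.

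**Figure D2:**
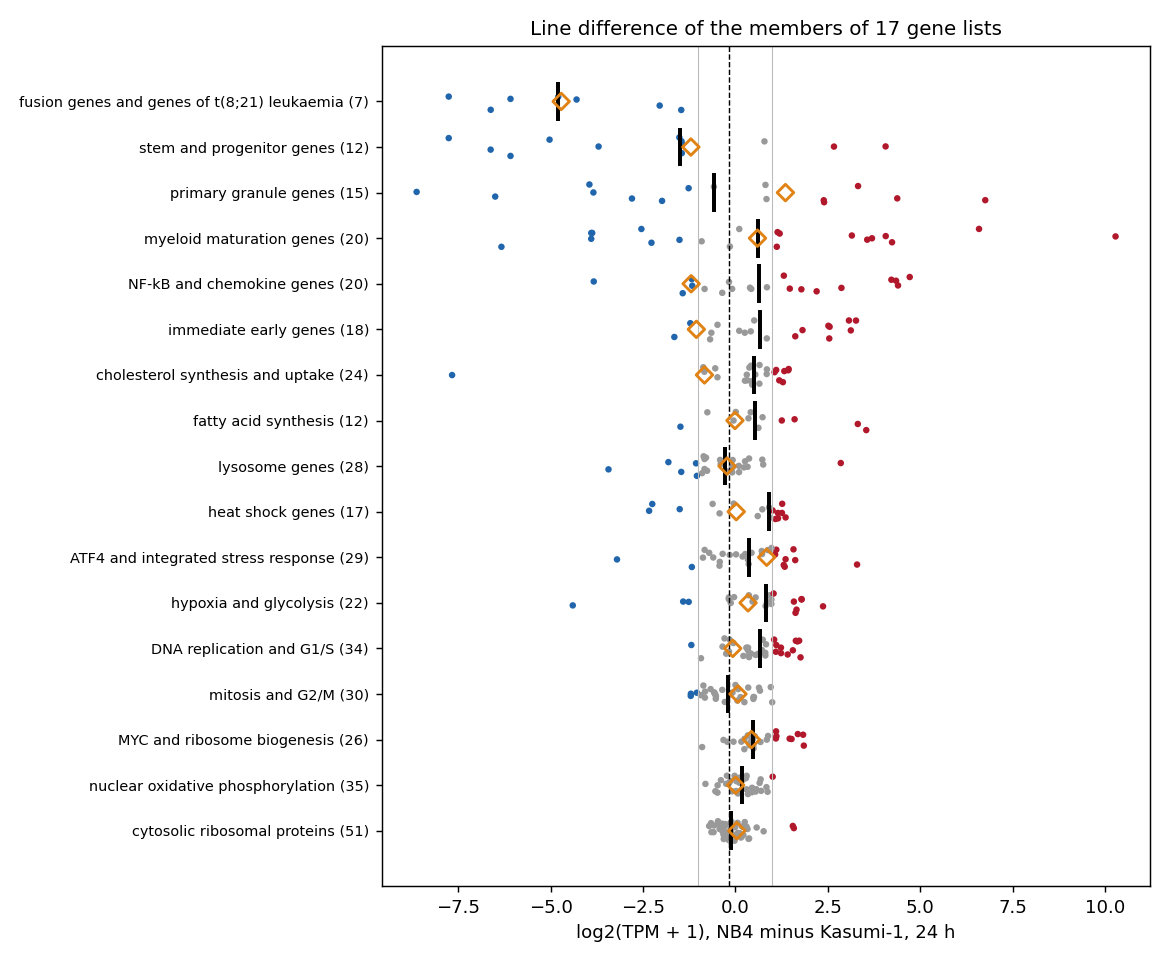
Log2 difference at 24 h, NB4 minus Kasumi-1, of each compared member of 17 gene lists (number in brackets), coloured where it passed 2-fold, with the list's median as a black bar, its untreated median as an orange diamond and the median of all genes as a dashed line. The bars lie to the right of the diamonds for NF-kB, immediate early, cholesterol, heat shock and DNA replication genes, to the left for primary granule and ATF4 genes, and close to them for t(8;21), lysosome and ribosomal protein genes.

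Few genes of the machinery common to most cells were 2-fold apart, though limma called many of them by smaller differences. Of 51 cytosolic ribosomal protein genes, 2 were 2-fold higher in NB4 and 0 in Kasumi-1 (median -0.10, and 0.08 with TPM as deposited), and limma called 6 and 18. The 2 were RPS6 (4329 and 1444 TPM) and RPL18 (3466 and 1178 TPM), which were also apart untreated, by 1.78 and 1.73. Of 35 nuclear genes of oxidative phosphorylation, 1 was 2-fold higher in NB4 (SDHA, a succinate dehydrogenase subunit, 189 and 93.5 TPM) and 0 in Kasumi-1, and limma called 15 and 2. The 15 became 16 with TPM as deposited, and 9 without the 6 h library of either line or the 12 h library of Kasumi-1. The most abundant protein-coding genes were EEF1A1, a translation elongation factor, in both lines (15716 and 15511 TPM), then TMSB4X, GAPDH, CALR and RPS24 in NB4 and MPO, TMSB4X, FTL and RPS24 in Kasumi-1. Of these, only MPO differed by 2-fold between the 24 h libraries.

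**Figure D3:**
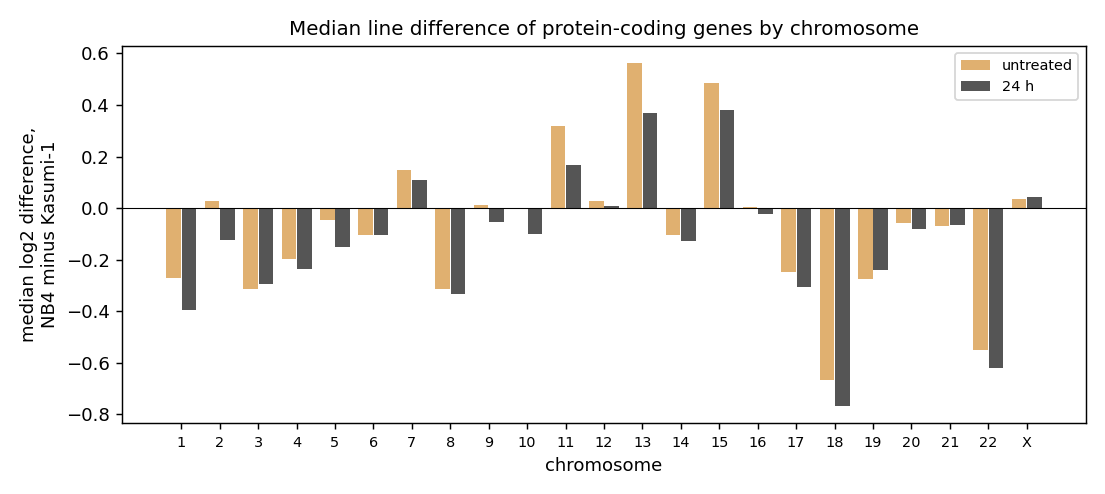
Median log2 difference of the compared protein-coding genes of each chromosome, NB4 minus Kasumi-1, untreated and at 24 h. Chromosomes 18 and 22 have the lowest medians and 15 and 13 the highest at both times.

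The line difference also varied by chromosome. The median of protein-coding genes at 24 h was lowest for chromosome 18 (-0.77) and chromosome 22 (-0.62) and highest for chromosome 15 (0.38) and chromosome 13 (0.37). The untreated medians were -0.67, -0.55, 0.49 and 0.56 in the same order, so these chromosomes stood at the ends in both comparisons. By gene type, 37.2% of 274 antisense genes and 34.3% of 181 long intergenic RNAs were 2-fold higher in Kasumi-1, against 19.7% of 10440 protein-coding genes. The corresponding shares towards NB4 were 13.1%, 18.2% and 12.6%. Without a known strand setting, reads of an antisense gene cannot be told apart from those of the gene opposite. The gene types were not matched for level.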

How the data were processed

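The titles gave each library its line and time. The submitters' processing notes name HISAT2, StringTie and the build hg19. Versions, options, annotation and strand setting: not given in the sources used here. The deposited TPM values sum to the same total in each library, the deposited FPKM values are scaled for length and depth, and the deposited coverage, a signal, is the average read depth over a gene. Coverage was used for depth only. Values are not counts, so no count test was run.

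Rows of the mitochondrial chromosome were dropped, TPM was rescaled and summed by gene name, and names on chromosome 6 from 28 to 34 Mb were set aside (419 names, of which 44 reached 5 TPM; 93 of 195 protein-coding names there are listed at 0 in all 8 libraries). A listed 0 may stand for an estimate that failed. Limma 3.58.1 (R 4.3.3, intensity trend, 4 residual degrees of freedom, two-sided, Benjamini-Hochberg adjusted p under 0.05 over the 12068 genes) compared the lines over the 6 treated libraries and was tested on simulated data. Nothing says the libraries are separate cultures, so the spread may be technical. Other steps used matplotlib 3.10.9, numpy 2.4.6 and pandas 2.3.3 under Python 3.11.15. Gene types came from GENCODE 29 (97.4% of genes matched), and coordinates from the deposited tables unless a promoter is given.

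The members and the 39 gene lists were chosen with earlier results of these data known. Named genes were the 15 with the largest 24 h difference each way, the 8 each way whose difference moved most from untreated, the 6 that turned most, up to 4 per list with the largest difference, the fusion partners and the 5 most abundant protein-coding genes per library. Other list members named were chosen after their values were seen. Some genes that this rule selects are not reported here.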

Additional observations from a re-analysis of the deposited data

Results flagged for a closer look

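CCPG1, a reticulophagy and cell cycle protein, was 4.08 higher in NB4 on the log2(TPM + 1) scale in the untreated libraries and -0.38 apart at 24 h, so that its difference moved by -4.46. It stands out because NB4 had 101 TPM untreated and 39.1 TPM at 24 h, where Kasumi-1 had 5.02 and 51.0 TPM, and every treated library of a line lay on the same side of that line's untreated one, on opposite sides in the 2 lines. The difference was not tested. The gene overlaps the read-through gene DYX1C1-CCPG1 on the same strand and PIGB on the opposite one.

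The mitochondrial chromosome, which the comparison leaves out, took 17.1% of the deposited TPM in Kasumi-1 at 24 h, above the 8.73% of untreated Kasumi-1 and the 5.04% to 6.71% of the NB4 libraries. It stands out because it is a signal outside the genes compared and above the level of the untreated library. The difference was not tested, and the deposited TPM of each other gene in that library is lowered by it.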

How the results depend on the processing

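Each result was recomputed under 10 alternatives for the 24 h differences, and the limma fit under 19, of which 6 left out 1 library. No difference of a named gene that was 2-fold at 24 h or passed limma changed sign, but the line with more genes turned under 2 scalings. With TPM as deposited 756 genes opened towards NB4 and 562 towards Kasumi-1, and limma called 3635 and 3170. With each library centred these were 708 and 660, and 3594 and 3401. Counts of genes 2-fold higher were 1585 in NB4 and 2467 in Kasumi-1, and 992 and 1504 among the 8348 genes with at least 20 TPM. With that filter the difference was kept for 649 genes higher in NB4 and 940 higher in Kasumi-1, opened for 331 and 558, closed for 288 that were higher in NB4 and 257 in Kasumi-1, and turned for 12 and 6. Among genes with at least 1 TPM it opened for 868 and 1399 and turned towards Kasumi-1 for 22. With no filter it opened for 868 and 1399, closed for 756 and 743 and turned towards Kasumi-1 for 22. With no filter 2 gene lists had a median of at least 1 either way, against 8, since genes at 0 in both libraries enter the lists. A pseudocount of 5 TPM left 9 genes turned towards NB4 and 4 towards Kasumi-1. The cause was not tested beyond the number of genes entering. FPKM rescaled in the same way gave identical values by construction. Limma called 2456 genes higher in Kasumi-1 among those with at least 20 TPM. Leaving out 1 treated library gave 2556 to 3123 genes higher in NB4 and 3151 to 3510 higher in Kasumi-1. With time as an added term, which pairs the libraries of both lines by time, limma called 3138 and 3639. Values near 5 TPM rest on a coverage of about 3 reads per base per TPM, so differences of such genes are the least certain.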

Other observations

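HRH1, the histamine H1 receptor, was the only gene of 18 receptors bound by chlorprothixene that reached 5 TPM in either 24 h library. It had 0.385, 8.64, 1.52 and 10.7 TPM in NB4, in the order untreated, 6, 12 and 24 h, against 0.0620, 0.302, 0.161 and 0.0486 TPM in Kasumi-1, with a 24 h difference of 3.48. Of the 18 receptor genes 9 were listed at 0 in both 24 h libraries. HDC, which makes the ligand of this receptor, stood at 899 TPM in NB4 against 0.336 TPM in Kasumi-1 at 24 h.

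Of 16 compared interferon-stimulated genes, 5 were 2-fold higher in NB4 and 4 in Kasumi-1 at 24 h (median -0.01), and 5 and 8 passed limma. MX2, a restriction factor, had 85.2 TPM in NB4 against 0.0717 TPM in Kasumi-1, and BST2, which tethers budding virions, 313 and 18.5 TPM. Of 6 compared metallothioneins, which bind zinc and copper, 1 was 2-fold higher in each line, and 5 of the 6 differences lay below 0 (median -0.38, and -1.19 untreated). The whole list of 11 genes summed to 535 TPM in NB4 against 937 TPM in Kasumi-1 at 24 h. MT1F had 24.7 TPM in NB4 and was listed at 0 in every Kasumi-1 library, and MT1G had 31.1 TPM in Kasumi-1 and was listed at 0 in NB4 at 24 h. The direction of MT1F and MT1G followed from the rule of entry. MT1 genes are close paralogs between which reads can be split. Of 19 integrin and adhesion genes 6 were higher in NB4 and 8 in Kasumi-1 (median -0.10), and of 17 cytokine receptors 4 and 5 (median -0.20). TNFRSF1B, a receptor of tumour necrosis factor, had 23.8 TPM in Kasumi-1 and 0.235 TPM in NB4. Of 16 cancer-testis antigens 13 were listed at 0 in both libraries, and MAGED1 was the 1 compared. Of 9 iron genes 1 was higher in NB4 and 3 in Kasumi-1, and of 12 megakaryocyte and platelet markers GP1BB alone was compared, at 5.92 TPM in NB4 against 10.3 TPM in Kasumi-1.

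The share of genes 2-fold higher in Kasumi-1 was 25.9% among 3720 genes whose higher level was 5 to 20 TPM, 19.2% among 5859 genes of 20 to 100 TPM and 15.2% among 2489 genes above that. The corresponding shares for NB4 were 15.9%, 11.1% and 13.7%.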
